A study of Mus musculus with 8 samples.

Results

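Heat shock proteins and the DnaJ proteins that serve them were measured as transcripts in the dorsal skin of UVB-irradiated hairless mice treated with enalapril or with its vehicle. A gene was a member when the name of an array probe was that of an Hsp90, Hsp70, Hsp110, Hsp60, Hsp10 or small heat shock protein (Hspa, Hspb, Hspd, Hspe, Hsph and Hsp90 series) or of a DnaJ A, B or C protein. This rule gave 58 genes on 118 probes, of 27740 genes and unnamed probes on 41174 probes in all. The probe with the highest mean signal stood for its gene, and 36 members had more than 1 probe. Hspa9 and Dnajb2 are listed on the array under the older names Hspa9a and Dnajb10. No probe carries the name of Hspa1b, whose transcript is nearly identical to that of Hspa1a, so values of Hspa1a may hold both.

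Total RNA came from 8 male SKH-1 mice aged 19 weeks, and every mouse had received UVB on the back for 10 weeks. Starting 1 week later, 4 mice were given enalapril maleate, an inhibitor of angiotensin-converting enzyme, at 1% in 30% ethanol on the skin, and 4 mice were given the 30% ethanol alone. Both solutions were applied 5 times weekly over 2 weeks. No unirradiated or untreated skin was analysed here, so each value compares irradiated skin with irradiated skin.

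Each RNA was hybridised to its own 1-colour array. The share of spots well above background was 67.1% to 72.7% per array, and 0 spots were saturated. The 75th percentile of spot intensity was 821.5 to 1070 on enalapril arrays and 884 to 1540 on vehicle arrays. All enalapril arrays were on slide 2 and all vehicle arrays on slide 1, each with its own scan, so in every comparison the slide and the drug cannot be told apart. The labelled tissue had its markers: all 7 keratinocyte and all 6 fibroblast markers passed the filter on dim probes, and 0 of either list passed the test (1 keratinocyte marker and 0 fibroblast markers at an unadjusted p under 0.05 in limma).

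Hsp70 proteins bind exposed hydrophobic stretches of unfolded proteins in cycles of ATP hydrolysis. DnaJ proteins deliver the clients and trigger the hydrolysis, Hsp110 proteins exchange the nucleotide, Hsp90 proteins finish the folding of signalling proteins, Hsp60 with Hsp10 forms a folding chamber in mitochondria, and small heat shock proteins hold unfolded proteins without ATP. In the cytosol, heat shock factor 1 induces many of these genes on heat or oxidative damage, while unfolded protein in the endoplasmic reticulum induces a separate set through the unfolded protein response.

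A level is given throughout as log2 of the processed spot intensity minus log2 of that array's 75th percentile, and a change as the mean level in enalapril minus the mean level in vehicle, with limma's standard error over 4 arrays per group. Levels of different probes are not comparable. Only genes whose probe passed the scanner software's background flag on 4 or more of the 8 arrays were tested. A gene is said to have risen or fallen where the adjusted p of limma's moderated test was under 0.05 with Benjamini-Hochberg adjustment over the 19097 genes tested. Over all of these, 14.2% were called, 4.33% as higher and 9.85% as lower in enalapril, and the median change was -0.08.

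Of the 58 members 56 were tested, and 13 of them were called (23.2%), against the 14.2% of all genes. In enalapril skin 4 rose (7.14% of the tested members, against 4.33% of all genes) and 9 fell (16.1%, against 9.85%). The risers were Hspa5 and Dnajb9 of the endoplasmic reticulum, Dnaja1 of the cytosol and Dnajc13 of endosomes. The genes that fell were the small heat shock protein genes Hspb2, Hspb3 and Hspb8, the Hsp70-type genes Hspa12b and Hspa1l, and the DnaJ genes Dnajc4, Dnajc15, Dnajc19 and Dnajb6. The members' median change was 0.02, with 29 above 0 and 27 below, against 7677 above and 11420 below over all genes. In 16 members no enalapril level overlapped a vehicle level, 5 with enalapril above and 11 with enalapril below. Over all genes this held for 22% of genes, 6.6% with enalapril above and 15.4% with enalapril below.

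**Figure D1:**
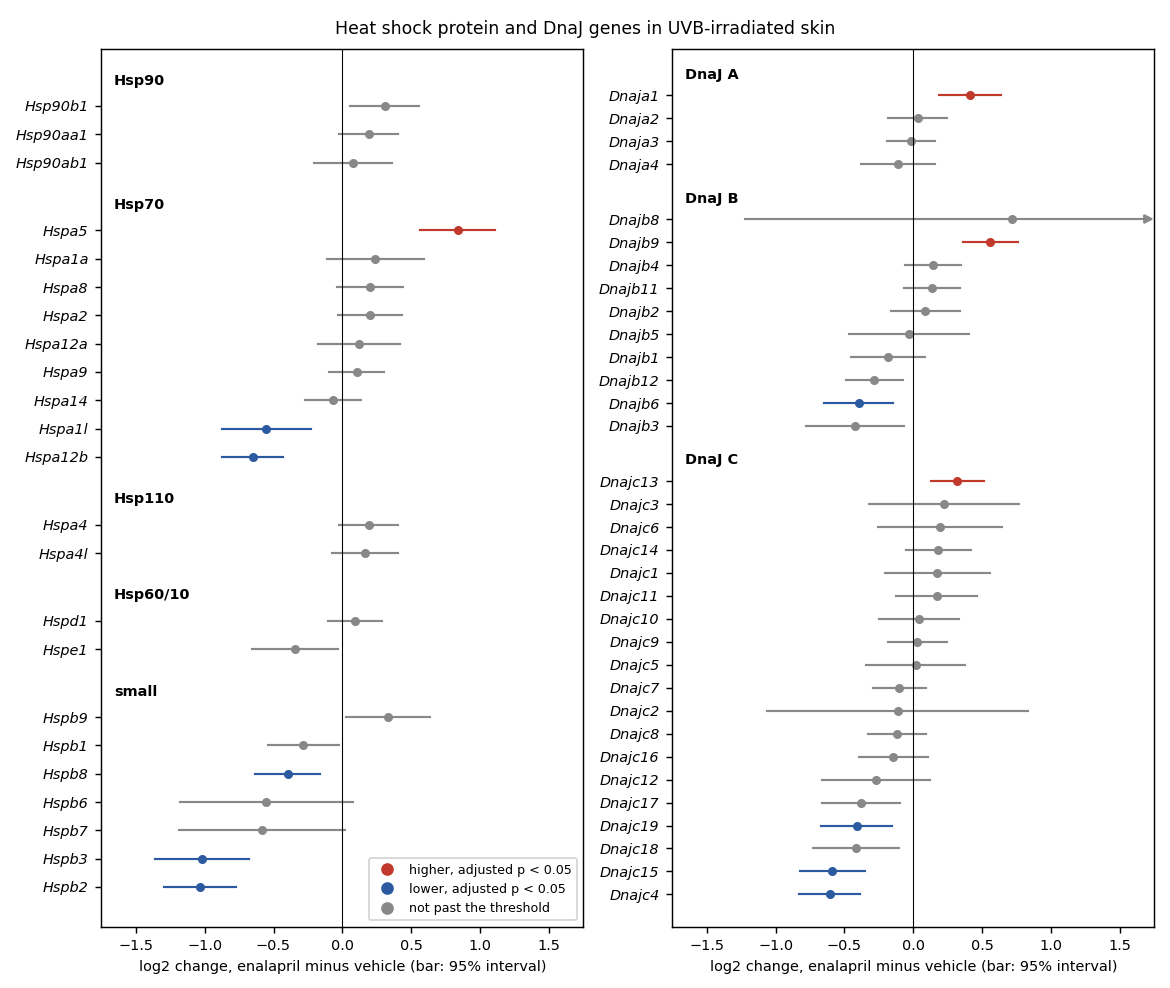
Change of each of the 56 tested members (x axis: log2 change, enalapril minus vehicle; point: estimate; bar: limma's 95% interval, 4 arrays per group), grouped by family. Red marks the 4 members that rose and blue the 9 that fell at an adjusted p under 0.05, grey the 43 that did not pass, and the interval of Dnajb8 runs past the axis.

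In the endoplasmic reticulum, the Hsp70 of that compartment and 1 of its DnaJ partners rose. Hspa5 (BiP), which receives almost every protein entering the secretory pathway and holds the sensors of the unfolded protein response inactive, had levels of 5.51, 5.38, 5.34 and 5.19 in enalapril skin, against 4.68, 4.52, 4.61 and 4.27 in vehicle skin. Every enalapril array lay above every vehicle array. The change was 0.84 ± 0.12 (SE, 95% interval 0.57 to 1.11), a 1.79-fold higher level, with an adjusted p of 0.00931. Before scaling the groups overlapped, with processed intensities of 32000 to 48900 in enalapril skin and 17100 to 37500 in vehicle skin.

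Dnajb9 (ERdj4), a DnaJ protein that binds Hspa5 and helps clear misfolded proteins, had levels of 0.98, 0.98, 0.85 and 0.84 in enalapril skin, against 0.30, 0.28, 0.41 and 0.43 in vehicle skin. It rose by 0.56 ± 0.09 (adjusted p = 0.0118), and again the groups did not overlap. The other 2 Dnajb9 probes gave changes of 0.50 and 0.48.

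Hsp90b1 (GRP94), the Hsp90 of this compartment, had levels of 5.53, 5.29, 5.31 and 5.07 in enalapril skin, against 5.02, 4.99, 5.02 and 4.93 in vehicle skin. The groups did not overlap, yet the change of 0.31 ± 0.11 missed the threshold (adjusted p = 0.0954), and a second probe gave 0.59 ± 0.37. The other 4 members placed there are all DnaJ partners of Hspa5, and none passed. Their changes were 0.22 ± 0.24 for Dnajc3 (P58IPK), 0.17 ± 0.17 for Dnajc1 (ERdj1), 0.14 ± 0.09 for Dnajb11 (ERdj3) and 0.04 ± 0.13 for Dnajc10 (ERdj5), with overlapping groups.

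All 7 members placed here in the endoplasmic reticulum thus had changes above 0, and 2 of the 7 rose (28.6%, against 4.33% of all genes). The median of the 7 was 0.22, against -0.08 over all genes, where 7677 of 19097 changes were above 0. This placing left out Dnajb12, Dnajc14, Dnajc16 and Dnajc18, DnaJ proteins also known from the membrane of this compartment. They changed by -0.28, 0.18, -0.14 and -0.42, and none passed. The sign of the 7 depended on the scaling. With arrays centred on spike-in controls, or with the deposited unscaled log2 values, only Hspa5 and Dnajb9 stayed above 0 and neither passed. Those settings shift all genes together and moved the median of all genes to -0.41 and -0.45. With normexp background correction, which can change the order of genes, 4 of the 7 were above 0 and 2 of the 7 above that setting's median of all genes (0.14). After 4 aberrant local backgrounds were replaced, all 7 were above both.

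Unfolded protein in this compartment is known to induce genes through a stress element, searched here as CCAAT followed by CCACG with 9 bases of any kind between them. RefSeq promoters (GRCm38.p6, 250 bases before to 50 bases after a start) were found for 48 of the 58 members, 64 promoters in all. On either strand, these letters stood in 3 of the members' promoters (4.69%), those of Hspa5, Hsp90b1 and Dnajc3, against 0.119% of all 32851 promoters of this length. They are printed from 5′ to 3′ because all 3 genes belong to the endoplasmic reticulum, with the element in capitals. The second match in Hsp90b1 lies on the other strand and so reads as its reverse complement.
Hspa5 (chr2:34771840-34772139, forward strand): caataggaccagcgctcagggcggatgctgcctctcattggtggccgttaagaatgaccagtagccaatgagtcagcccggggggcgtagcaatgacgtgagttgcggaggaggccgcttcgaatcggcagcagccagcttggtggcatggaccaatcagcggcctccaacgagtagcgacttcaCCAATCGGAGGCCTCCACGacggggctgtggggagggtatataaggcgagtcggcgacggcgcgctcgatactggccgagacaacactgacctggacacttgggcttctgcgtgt
Hsp90b1 (chr10:86705395-86705694, reverse strand): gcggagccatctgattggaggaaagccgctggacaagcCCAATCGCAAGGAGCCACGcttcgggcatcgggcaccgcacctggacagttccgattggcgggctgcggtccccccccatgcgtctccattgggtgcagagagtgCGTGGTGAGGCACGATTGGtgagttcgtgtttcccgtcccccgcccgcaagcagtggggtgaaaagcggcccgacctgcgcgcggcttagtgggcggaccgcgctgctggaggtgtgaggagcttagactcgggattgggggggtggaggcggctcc
Dnajc3 (chr14:118937682-118937981, forward strand): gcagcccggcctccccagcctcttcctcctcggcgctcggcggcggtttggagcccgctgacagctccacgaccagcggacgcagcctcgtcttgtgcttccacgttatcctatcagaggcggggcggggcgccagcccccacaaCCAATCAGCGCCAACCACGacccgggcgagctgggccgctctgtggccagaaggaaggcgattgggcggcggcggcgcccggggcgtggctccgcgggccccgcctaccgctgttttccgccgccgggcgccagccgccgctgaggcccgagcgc
Of these 3 genes Hspa5 rose, and the changes of Hsp90b1 and Dnajc3 did not pass. The risen Dnajb9 has no exact match in its window. A match of letters is a description and not a site of binding shown here.

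Among 21 other folding and stress genes of the same compartment, 17 had changes above 0 with this scaling (median 0.15). Over all genes, 7677 of 19097 did. Of the 21, 3 rose (14.3%, against 4.33% of all genes) and 1 fell (4.76%, against 9.85%). Calr (calreticulin, a chaperone of glycoproteins that also stores calcium) had levels of 4.00, 4.14, 4.07 and 4.26 in enalapril skin, against 3.60, 3.67, 3.87 and 3.58 in vehicle skin, and rose by 0.44 ± 0.10 (adjusted p = 0.0305). Manf, a secreted protein induced by stress in this compartment, rose by 0.34 ± 0.08 (adjusted p = 0.0316). The third was Ero1a, which drives disulfide formation and was named after its values were seen, with a rise of 0.41 ± 0.11 (adjusted p = 0.0470).

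Sil1, which exchanges the nucleotide of Hspa5, moved the other way. Its levels were 3.43, 3.34, 3.14 and 3.42 in enalapril skin, against 3.85, 3.80, 3.69 and 3.74 in vehicle skin, a fall of 0.44 ± 0.10 on the log2 scale (adjusted p = 0.0260). The calls of Calr, Manf and Sil1 were each lost when enalapril 1, 2 or 3 or vehicle 1, 2 or 4 was left out.

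**Figure D2:**
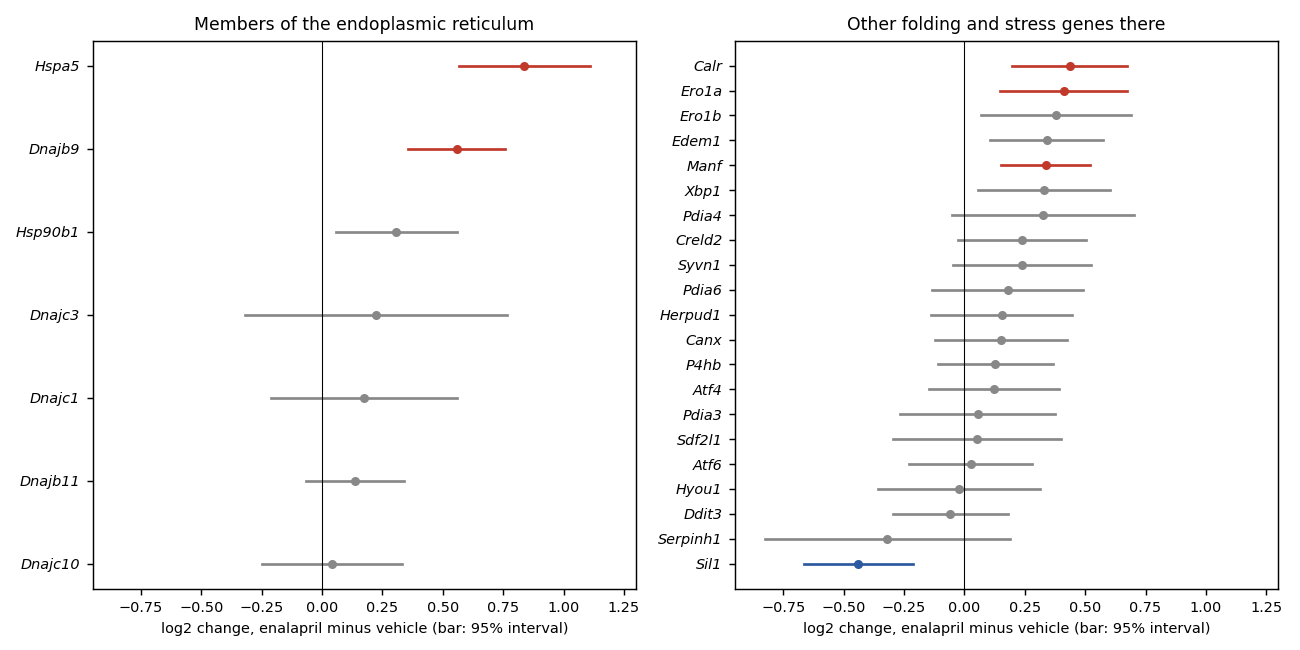
Changes of the 7 members placed in the endoplasmic reticulum (left) and of 21 other folding and stress genes of that compartment (right). The x axis is the log2 change, enalapril minus vehicle, and bars give the 95% interval, with 4 arrays per group. Red genes rose, blue fell and grey did not pass: all 7 members and 17 of the 21 others lie above 0 with this scaling, while with spike-in centring only 2 of the 7 do.

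The small heat shock protein family held the largest falls among the members. Of its 7 genes, 3 fell (42.9%, against 9.85% of all genes), 0 rose (1 at an unadjusted p under 0.05 in limma), and the median change was -0.55. Hspb2, found mostly in striated muscle, had levels of -0.15, 0.20, 0.22 and 0.25 in enalapril skin, against 1.11, 1.22, 1.26 and 1.06 in vehicle skin. Enalapril 1 was the lowest, and all enalapril arrays lay far below all vehicle arrays. The fall was 1.03 ± 0.12 on the log2 scale (95% interval -1.29 to -0.77), so that vehicle skin was 2.05-fold higher, with an adjusted p of 0.00547, and a dimmer Hspb2 probe changed by -0.87 ± 0.21.

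Hspb3, the partner of Hspb2 in muscle, had levels of -1.86, -1.36, -1.69 and -1.32 in enalapril skin, against -0.42, -0.63, -0.37 and -0.71 in vehicle skin. The groups did not overlap, and the fall was 1.02 ± 0.15 (adjusted p = 0.0101). Hspb7, a small heat shock protein of heart and skeletal muscle, had -1.65, -0.64, -0.45 and -0.39 in enalapril skin, against -0.19, -0.30, 0.01 and -0.33 in vehicle skin, a change of -0.58 ± 0.26 that did not pass (adjusted p = 0.166). Hspb6 (Hsp20), abundant in muscle, had -0.90, 0.13, 0.42 and -0.17 in enalapril skin, against 0.22, 0.26, 0.85 and 0.37 in vehicle skin, with a change of -0.55 ± 0.28 (adjusted p = 0.203). In both genes enalapril 1 was well below the other enalapril arrays, and without it the changes were -0.30 for Hspb7 and -0.30 for Hspb6. These 4 genes stayed below 0 under each of the other scalings, filters, models and left-out arrays tried.

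Most markers of skeletal muscle fibres moved the same way. Of 12 such markers 5 fell (41.7%, against 9.85% of all genes) and 0 rose (0 at an unadjusted p under 0.05 in limma). The 12 markers had a median change of -0.68, with 11 below 0 and 1 above. The log2 of their summed level was 8.97 to 9.18 in enalapril skin, against 9.26 to 9.80 in vehicle skin, without overlap, and none of the 12 was below background on all arrays. Of 7 adipocyte markers 4 fell (57.1%, against 9.85%), with summed levels of 7.01 to 7.48 in enalapril skin and 7.45 to 7.87 in vehicle skin. Of 5 smooth muscle markers 1 fell (20%, against 9.85%), with 5.49 to 5.81 in enalapril skin and 5.79 to 6.28 in vehicle skin. In whole skin, fewer cells of a type and less RNA per cell cannot be told apart, and the part of these markers in the falls of the small heat shock protein genes was not tested.

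**Figure D3:**
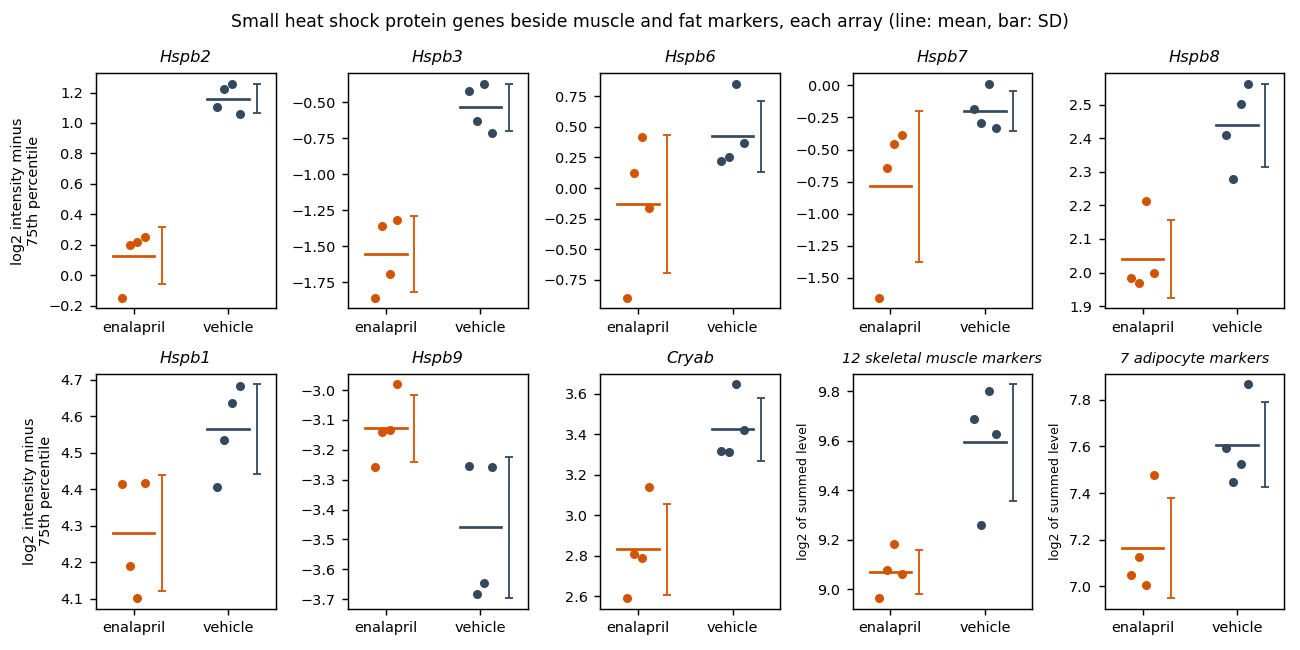
Levels of the 7 small heat shock protein genes and of Cryab on each array, beside the log2 of the summed level of 12 skeletal muscle and 7 adipocyte markers (y axes: log2 intensity minus the array's 75th percentile; points: arrays; line: mean; bar: SD, 4 arrays per group). Hspb2, Hspb3, Hspb7, Hspb8, Cryab and the muscle sum do not overlap between enalapril and vehicle, while Hspb1, Hspb6, Hspb9 and the adipocyte sum do.

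The small heat shock proteins found beyond muscle were mixed. Hspb8, which works with Bag3 in the removal of misfolded proteins, had levels of 1.98, 1.97, 2.21 and 2.00 in enalapril skin, against 2.41, 2.28, 2.50 and 2.56 in vehicle skin, and fell by 0.40 ± 0.10 (adjusted p = 0.0383). Hspb1 (Hsp25 in mouse), abundant in differentiating epidermis, had 4.41, 4.19, 4.10 and 4.42 in enalapril skin, against 4.41, 4.53, 4.64 and 4.68 in vehicle skin. Its groups overlapped and its change of -0.28 ± 0.11 did not pass (adjusted p = 0.123). Hspb9, known from testis, was dim, with a change of 0.33 ± 0.13 (adjusted p = 0.126).

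The alpha crystallins are relatives of these proteins outside the naming rule. Cryab, abundant in lens and muscle, had levels of 2.59, 2.81, 2.79 and 3.14 in enalapril skin, against 3.32, 3.31, 3.65 and 3.42 in vehicle skin, and fell by 0.59 ± 0.14 (adjusted p = 0.0278). That call was lost with any array but enalapril 4 left out. Cryaa was dim and changed by -0.57 ± 0.29 (adjusted p = 0.216).

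In the Hsp70 family, 2 of 9 members fell (22.2%, against 9.85% of all genes). Only Hspa5 rose (11.1%, against 4.33%). Hspa12b, an atypical Hsp70 of endothelial cells, had levels of -0.46, -0.41, -0.45 and -0.23 in enalapril skin, against 0.22, 0.26, 0.40 and 0.18 in vehicle skin. It fell by 0.65 ± 0.10 (95% interval -0.87 to -0.43, adjusted p = 0.0102), and the groups did not overlap. The 4 endothelial markers did not fall with it: 0 passed in limma in either direction (0 at an unadjusted p under 0.05), and their log2 summed level was 1.72 to 1.93 in enalapril skin, against 1.50 to 1.77 in vehicle skin.

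Hspa1l, an Hsp70 best known from testis, was dim, with levels of -4.01, -3.39, -3.52 and -3.69 in enalapril skin, against -3.01, -3.23, -3.01 and -3.14 in vehicle skin. It fell by 0.55 ± 0.14 (adjusted p = 0.0371). Its processed intensities were only 67 to 84 in enalapril skin and 100 to 191 in vehicle skin. With normexp background correction its change turned to 0.25, and after the aberrant local backgrounds were replaced it was -0.22.

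The main inducible and constitutive Hsp70 genes of the cytosol did not pass. Hspa1a, the classical heat-inducible Hsp70, had levels of 3.90, 4.06, 4.49 and 3.92 in enalapril skin, against 3.74, 4.07, 3.69 and 3.92 in vehicle skin. Only enalapril 3 stood above all vehicle arrays, and the change was 0.24 ± 0.15 (95% interval -0.11 to 0.59, adjusted p = 0.318). Its 4 probes disagreed in size, with changes between 0.17 and 0.95, none of which passed when every probe was tested on its own.

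Hspa8 (Hsc70), the constitutive form, had 5.97, 6.07, 6.15 and 6.25 in enalapril skin, against 6.00, 5.78, 5.83 and 6.04 in vehicle skin, a change of 0.20 ± 0.10 (adjusted p = 0.223). The remaining Hsp70 members ran from -0.07 for Hspa14 to 0.20 for Hspa2, with Hspa9, the mitochondrial Hsp70, at 0.10 ± 0.09 and Hspa12a at 0.12 ± 0.13. A dimmer Hspa9 probe gave 0.44 ± 0.13, and dimmer Hspa12a probes gave 0.46 ± 0.34 and -0.35 ± 0.36. None of these passed over all probes. The Hsp110 members Hspa4 and Hspa4l changed by 0.19 ± 0.09 and 0.16 ± 0.11 without passing. A dimmer Hspa4l probe gave 0.53 ± 0.13 (adjusted p = 0.0355 over all probes).

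Hsph1, the main Hsp110, is on the array only under the name Hsp110, which the rule does not hold. Its levels were 2.47, 2.38, 2.84 and 2.15 in enalapril skin, against 2.04, 2.07, 1.88 and 1.79 in vehicle skin. The groups did not overlap, but the change of 0.51 ± 0.15 did not pass (adjusted p = 0.0561).

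The cytosolic Hsp90 genes did not pass either. Hsp90aa1, the inducible form, had levels of 4.74, 4.59, 4.81 and 4.68 in enalapril skin, against 4.58, 4.59, 4.48 and 4.39 in vehicle skin, with a change of 0.19 ± 0.09 (95% interval -0.02 to 0.41, adjusted p = 0.196). Hsp90ab1, the constitutive form, had 5.47, 5.63, 5.77 and 5.43 in enalapril skin, against 5.41, 5.30, 5.68 and 5.60 in vehicle skin, with a change of 0.08 ± 0.12 (adjusted p = 0.710). The levels of both genes overlapped between enalapril and vehicle.

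Of 26 co-chaperones of Hsp90 and Hsp70, 4 fell (15.4%, against 9.85% of all genes), and the median change was -0.02. None rose (2 at an unadjusted p under 0.05 in limma). Cdc37, which brings kinases to Hsp90, fell by 0.42 ± 0.09 (adjusted p = 0.0253). Bag5, a nucleotide exchange factor, fell by 0.36 ± 0.08 (adjusted p = 0.0277). Unc45b, the myosin chaperone of striated muscle, fell by 0.46 ± 0.11 (adjusted p = 0.0285). The fourth, named after its values were seen, was the ubiquitin ligase Stub1, with a fall of 0.31 ± 0.09 (adjusted p = 0.0488).

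In mitochondria, neither gene of the folding chamber passed, and some genes of import and proteolysis fell. Whether the chamber genes differ from those genes was not tested. Hspd1 (Hsp60) had levels of 4.60, 4.46, 4.45 and 4.42 in enalapril skin, against 4.42, 4.39, 4.43 and 4.32 in vehicle skin, with a change of 0.09 ± 0.09 (adjusted p = 0.500). A second, dimmer Hspd1 probe rose by 0.59 ± 0.10 (adjusted p = 0.0178 over all probes), so the probes of this gene disagree on the call. Hspe1 (Hsp10), the lid of the chamber, had 3.32, 3.32, 3.08 and 3.60 in enalapril skin, against 3.89, 3.50, 3.56 and 3.75 in vehicle skin, with a change of -0.34 ± 0.14 (adjusted p = 0.125). Its groups overlapped only through enalapril 4.

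Dnajc15, a DnaJ protein of the inner mitochondrial membrane, had levels of 3.24, 3.42, 3.09 and 3.40 in enalapril skin, against 3.97, 3.80, 3.84 and 3.88 in vehicle skin. It fell by 0.59 ± 0.10 (95% interval -0.82 to -0.35, adjusted p = 0.0142), with no overlap. Dnajc19, a DnaJ subunit of the import motor, had 3.94, 4.04, 3.69 and 4.11 in enalapril skin, against 4.44, 4.40, 4.31 and 4.27 in vehicle skin, and its brightest probe fell by 0.41 ± 0.11 (adjusted p = 0.0440). The other 2 Dnajc19 probes, matched to another transcript, gave 0.04 ± 0.13 and -0.03 ± 0.11.

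Of 8 other genes of mitochondrial folding and proteolysis, 4 fell (50%, against 9.85% of all genes), 0 rose (0 at an unadjusted p under 0.05 in limma), and the median change was -0.26. The protease subunit Clpp had levels of 2.44, 2.44, 2.43 and 2.58 in enalapril skin, against 2.85, 2.88, 2.86 and 2.87 in vehicle skin, and fell by 0.39 ± 0.08 (adjusted p = 0.0221). Hscb, a DnaJ-type co-chaperone of iron-sulfur cluster assembly, fell by 0.57 ± 0.14 (adjusted p = 0.0359). Grpel1, the nucleotide exchange factor of Hspa9, fell by 0.33 ± 0.09 (adjusted p = 0.0404), and Htra2, a protease named after its values were seen, fell by 0.44 ± 0.12 (adjusted p = 0.0475). Dnaja3 and Dnajc11, the other mitochondrial DnaJ members, changed by -0.02 ± 0.08 and 0.17 ± 0.13 without passing.

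Among the DnaJ proteins outside these compartments, Dnaja1, a farnesylated partner of Hspa8, rose. Its levels were 3.40, 3.55, 3.66 and 3.49 in enalapril skin, against 3.18, 3.16, 2.95 and 3.15 in vehicle skin, a change of 0.41 ± 0.10 (adjusted p = 0.0307). Vehicle 3 was the lowest array, and no levels overlapped. The other 2 Dnaja1 probes gave 0.27 and 0.35. Dnajc13 (RME-8), which acts with Hsc70 in endosomal sorting, had 0.09, 0.02, 0.09 and -0.04 in enalapril skin, against -0.35, -0.27, -0.28 and -0.23 in vehicle skin, a change of 0.32 ± 0.08 (adjusted p = 0.0380).

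Dnajc4 had levels of 1.79, 1.85, 1.84 and 2.08 in enalapril skin, against 2.47, 2.48, 2.44 and 2.59 in vehicle skin, and fell by 0.61 ± 0.10 (95% interval -0.83 to -0.39, adjusted p = 0.0121). Dnajb6, which suppresses the aggregation of polyglutamine proteins, had 1.76, 1.77, 1.63 and 1.43 in enalapril skin, against 2.03, 2.16, 1.90 and 2.09 in vehicle skin, and fell by 0.40 ± 0.11 (adjusted p = 0.0463). No levels of either gene overlapped. The probes of Dnajb6 disagreed in size: the other probe of the same transcript gave -0.43 ± 0.17, and a probe matched to another Dnajb6 transcript gave -0.01 ± 0.09.

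Dnajb1 (Hsp40), the DnaJ partner most strongly induced by heat, had 4.65, 4.75, 5.02 and 4.94 in enalapril skin, against 5.11, 5.12, 4.83 and 5.03 in vehicle skin. The groups overlapped, and the change of -0.18 ± 0.12 did not pass (95% interval -0.45 to 0.08, adjusted p = 0.312). Over the DnaJ genes as a whole, 3 of 33 tested rose (9.09%, against 4.33% of all genes) and 4 fell (12.1%, against 9.85%), and the median change was -0.02.

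The remaining DnaJ members did not pass. In the B class their changes ran from -0.42 for Dnajb3 to 0.72 for Dnajb8, whose dim probe had an error of 0.85, with Dnajb2, Dnajb4 and Dnajb5 between -0.03 and 0.15. Dnajb12 changed by -0.28 ± 0.09 with no overlap (adjusted p = 0.0690). In the C class they ran from -0.42 for Dnajc18 to 0.19 for Dnajc6, with Dnajc17 at -0.38, Dnajc12 at -0.27 and Dnajc16 at -0.14. A dimmer Dnajc16 probe gave 0.61 ± 0.14 (adjusted p = 0.0329 over all probes). Dnajc2, Dnajc5, Dnajc7, Dnajc8, Dnajc9 and Dnajc14 lay between -0.12 and 0.18, as did Dnaja2 and Dnaja4 of the A class.

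The array of enalapril 4 was low for several of these genes. Dnajc2 had levels of 1.48, 1.10, 0.85 and -0.72 in enalapril skin, against 0.78, 0.92, 0.90 and 0.57 in vehicle skin, and Dnajc3 had 2.29, 1.85, 1.80 and 1.07 in enalapril skin, against 1.59, 1.48, 1.76 and 1.29 in vehicle skin. In both genes enalapril 4 was the lowest of all 8 arrays. Without it the change of Dnajc2 turned to 0.35, against -0.12 with all arrays, and that of Dnajc3 was 0.45, against 0.22 with all arrays and 0.04 without enalapril 1. The other 3 Dnajc3 probes gave changes of 0.53, 0.29 and 0.56, none of which passed over all probes.

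A pair of members was not tested. Dnajb7 was not well above background on any array. Dnajb13, a DnaJ protein of sperm flagella, was not well above background on any enalapril array and was so on 2 of the 4 vehicle arrays, so no fold is given. Its measured mean levels were -7.58 in enalapril skin and -5.92 in vehicle skin.

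**Figure D4:**
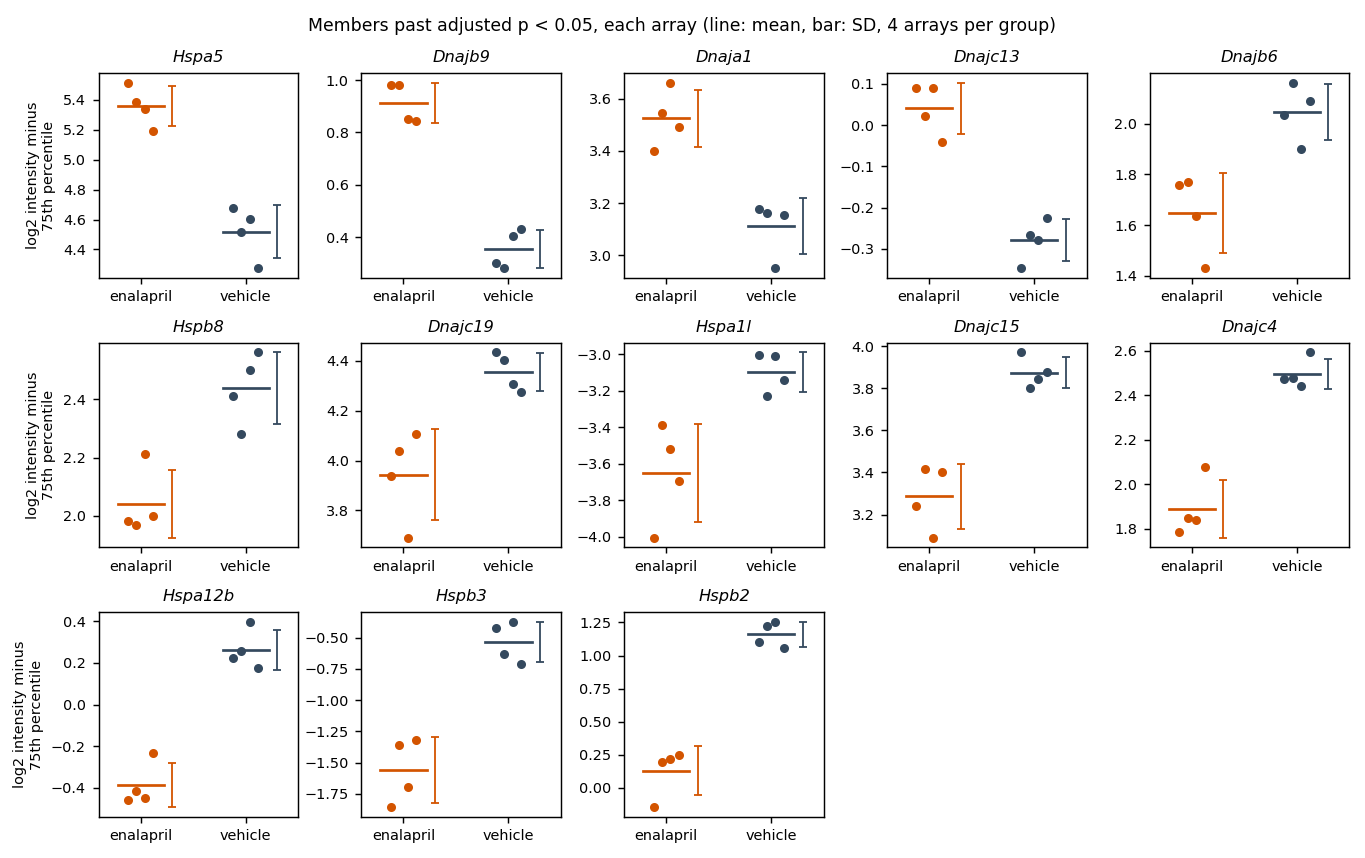
Levels of the 13 called members on each array (y axis: log2 intensity minus the array's 75th percentile, a separate range per gene; points: arrays; line: mean; bar: SD, 4 arrays per group). In each panel the enalapril and vehicle points do not overlap, from Hspa5 with the highest change to Hspb2 with the lowest.

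The genes commonly induced by heat shock factor 1 showed no shared direction. Of 21 such genes 20 were tested, and 11 had changes above 0 (median 0.08), against 7677 of 19097 over all genes. Of the 20, 1 rose (Dnaja1, 5%, against 4.33% of all genes) and 2 fell (Cryab and Hspb8, 10%, against 9.85%). Both shares are close to those of all genes. Of the factors themselves and their binding protein Hsbp1, 0 of 4 passed (1 at an unadjusted p under 0.05 in limma). Hsf1 changed by -0.02 ± 0.19, while Hsf2 and Hsf4 were dim and changed by -0.42 ± 0.30 and -0.55 ± 0.22. Of 15 subunits of the cytosolic chaperonin and prefoldin, 1 fell (6.67%, against 9.85% of all genes). It was the prefoldin subunit Pfdn5, with a fall of 0.53 ± 0.13 (adjusted p = 0.0342).

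Heat shock factor 1 binds inverted repeats of a short element, searched here as GAA, TTC and GAA in that order with 2 bases of any kind between neighbours, on either strand. These letters stood in 4 of the members' 64 promoters (6.25%), against 0.603% of all promoters of the same length. They belonged to 3 genes, Hspd1 and Hspe1, which share a divergent promoter whose windows overlap, and Dnajb6. The windows of Dnajb6 also overlap and hold the same match, so the 4 promoters count the same letters more than once. For Hspe1 and Dnajb6, 1 window each is printed with the matches in capitals. In Hspe1 the capitals cover 2 overlapping matches on opposite strands.
Hspe1 (chr1:55087898-55088197, forward strand): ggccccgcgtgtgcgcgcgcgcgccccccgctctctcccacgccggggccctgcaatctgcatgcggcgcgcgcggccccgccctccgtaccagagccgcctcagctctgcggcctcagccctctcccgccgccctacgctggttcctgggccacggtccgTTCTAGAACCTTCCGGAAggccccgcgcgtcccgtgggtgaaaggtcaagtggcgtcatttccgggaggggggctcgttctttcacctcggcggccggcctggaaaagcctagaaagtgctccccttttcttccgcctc
Dnajb6 (chr5:29735648-29735947, forward strand): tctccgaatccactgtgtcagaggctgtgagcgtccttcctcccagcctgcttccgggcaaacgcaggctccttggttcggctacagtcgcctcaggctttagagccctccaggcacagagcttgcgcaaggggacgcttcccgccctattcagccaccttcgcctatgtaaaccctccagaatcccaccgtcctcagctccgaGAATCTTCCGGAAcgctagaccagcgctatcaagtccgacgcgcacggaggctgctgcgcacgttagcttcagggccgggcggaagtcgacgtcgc
Hspd1 and Hspe1 did not pass, and Dnajb6 fell by its brightest probe. Members without a promoter in the table were Hsp90aa1, Hsp90ab1, Hspa8, Hspa9, Hspb2, Dnajc2, Dnajc5, Dnajc11, Dnajc12 and Dnajc18. No match elsewhere says only that these letters are not in the window.

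The 13 calls were not equally firm. Hspa5, Dnajb9, Hspb2, Hspb3, Hspa12b, Dnajc4 and Dnajc15 passed in all 8 fits that each left out 1 array. Dnaja1, Dnajc13, Hspb8, Dnajc19 and Dnajb6 passed only in the fit without enalapril 4, and Hspa1l in those without enalapril 2 and enalapril 4. The scaling moved the balance of directions: quantile normalization gave 6 members higher and 6 lower, spike-in centring gave 0 higher and 12 lower, and the deposited unscaled values gave 0 higher and 8 lower, with 1 and 0 members higher at an unadjusted p under 0.05 in limma. Relative to the median of all genes, Hspa5 stood at 0.92 and Hspb2 at -0.95. With normexp background correction these values were 0.57 and -1.16, and after the aberrant backgrounds were replaced 0.87 and -1.01. Of the other folding genes, Cdc37, Clpp, Hscb and Pfdn5 passed only in the fits without enalapril 4 and without vehicle 3. Bag5, Unc45b and Grpel1 passed only in the fit without enalapril 4.

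**Figure D5:**
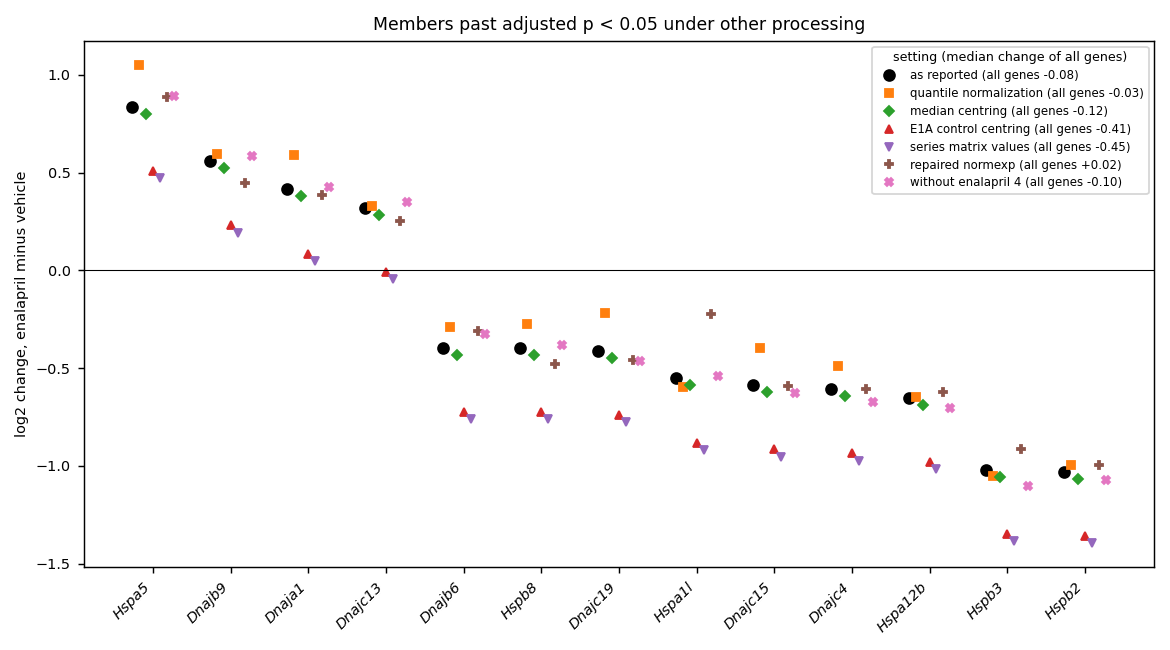
Change of the 13 called members as reported and under 6 other settings (y axis: log2 change, enalapril minus vehicle; the legend gives the median change of all genes in each). The 9 members that fell stay below 0 in every setting drawn. Normexp before the aberrant backgrounds were replaced, where Hspa1l was at 0.25, is not drawn. Of the 4 that rose Dnajc13 lies just below 0 with spike-in centring and with the deposited values. There the median of all genes is -0.41 and -0.45.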

How the data were processed

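Intensity on a linear scale came from the deposited scanner files, made with Agilent Feature Extraction 9.1.3.1 per the file headers (9.1 per the submitters' processing notes), background-subtracted and not scaled between arrays. Deposited 0 or 1 flags of that software, other values, served as filters. Values in the deposited series matrix are on a log2 scale and equalled log2 of these intensities, uncentred. Flagged spots were removed (47 probes lost), spots of a probe averaged, and names updated through RefSeq tables of GRCm38.p6 (22951 probes by accession, 6659 by symbol, 3096 by synonym, 2024 as in the file, 6444 unnamed).

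Tests used limma 3.58.1 (lmFit and eBayes, group as the only term, two-sided) in R 4.3.3, with data.table (1.17.8), checked on simulated data. The labels call the arrays biological replicates. The number of arrays limits the precision. Members named were those called and a set list of core chaperones; of each other list, up to 3 genes with the smallest p. The members and lists were chosen with earlier results of these data known. Alternatives covered background correction (normexp, offset 50), scaling, filters, probes, model, replicate number and left-out arrays. The series description also mentions treatment for 6 weeks and 6 mice per group, not analysed here.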

Additional observations from a re-analysis of the deposited data

Results flagged for a closer look

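In 5 of 84 groups of 4 arrays, 1 array stood further from the rest than Dixon's 95% critical value allows, and chance alone flags about 1 in 20 groups. The lowest Hspb2 level in enalapril skin was -0.15 on enalapril 1, with the nearest at 0.20. The highest Hspb8 level in enalapril skin was 2.21 on enalapril 3, with the nearest at 2.00. The lowest Dnaja1 level in vehicle skin was 2.95 on vehicle 3, with the nearest at 3.15. The highest Manf level in vehicle skin was 3.16 on vehicle 3, with the nearest at 3.08. The highest Clpp level in enalapril skin was 2.58 on enalapril 4, with the nearest at 2.44.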

How the results depend on the processing

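The 13 members called, 4 higher and 9 lower, became 10 (3 and 7) with normexp background correction after 4 aberrant local backgrounds were replaced, 12 with quantile normalization (10 of the 13 among them), 12 with a gene's probes averaged, 10 with every probe tested, 14 with an intensity trend and 13 with either stricter filter. Larger moves were 0 members with normexp as planned (1 higher and 10 lower at an unadjusted p under 0.05 in limma; 0 of all genes passed), 9 with median centring (2 higher), 12 with spike-in centring (0 higher), 8 with the series matrix values (0 higher), 7 with no filter on dim probes (2 higher, 5 lower), 19 with array weights (14 lower), 17 at an adjusted p under 0.10, and 6 with at least a 1.5-fold change (1 higher, 5 lower). With each array left out the count ran from 7 to 17, with 2 to 5 higher and 5 to 12 lower; the 17 came without enalapril 4. Over all genes those fits called 844 to 4942, against 2707; array weights called 5937, no filter 1495, at least 1.5-fold 1360 and an adjusted p under 0.10 4537. The cause of these moves was not tested.

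The replicate number as a block called 4 members, 1 higher (Hspa5) and 3 lower (Hspb2, Hspa12b, Dnajc4), and 610 of all genes. Deviations of same-numbered arrays correlated at -0.16, 0.05, 0.15 and -0.02, and those of differently numbered arrays at -0.13 to 0.22. Whether same-numbered arrays form pairs cannot be told from these values. Slide or scan as a block could not be fitted.

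Of 1078 single values recomputed, 763 were rated the same. For a gene this meant the same direction and side of the threshold. The count of all genes called and the median changes were included, where it meant only a limited shift. The gene values covered 42 genes: the called members, the set core chaperones and up to 3 genes of each other list. Further members were not counted, though some of them changed sign too. With spike-in centring Dnaja2 went from 0.03 to -0.30 and Hspa4 from 0.19 to -0.14. Among the values of the 42 genes, 25 changed sign. With normexp as planned these were Cryaa 0.37, Hsf2 0.83, Hsf4 0.63, Hsp90ab1 -0.15, Hspa1l 0.25 and Hspd1 -0.17, and after replacement Hsf2 0.20, Hsf4 0.056 and Hspd1 -0.0012. With quantile normalization it was Dnajb1 at 0.0104. With spike-in centring they were Dnajc13 -0.0078, Hsp90aa1 -0.14, Hsp90ab1 -0.25, Hsp90b1 -0.0213, Hspa1a -0.088, Hspa8 -0.13 and Hspd1 -0.24. With the series matrix values they were Dnajc13 -0.0449, Hsp90aa1 -0.17, Hsp90ab1 -0.29, Hsp90b1 -0.0584, Hspa1a -0.13, Hspa8 -0.17, Hspd1 -0.27 and Manf -0.029. Normexp as planned left 4 of the 7 members placed in the endoplasmic reticulum above 0 and 2 of the 7 above the median of all genes. Dnajc10 was below 0 with array weights and without enalapril 4 or vehicle 3. Probes of Hspa1l, Hsf2, Hsf4 and Cryaa lie near background, which limits their values. Of 33 members with more than 1 tested probe, 10 had probes with changes of both signs.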

Other observations

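Chaperone genes that the array lists under names outside the rule, such as clone names, included 12 on the array, of which 9 were tested. Of these 0 rose (1 at an unadjusted p under 0.05 in limma) and 1 fell (11.1%, against 9.85% of all genes). The gene that fell was Dnajc24, named after its values were seen, which takes part in diphthamide synthesis on elongation factor 2, with levels of -0.50, -0.14, -0.45 and -0.49 in enalapril skin, against 0.16, 0.26, 0.00 and 0.17 in vehicle skin. Its change was -0.55 ± 0.11 (adjusted p = 0.0216).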
